A study of Mus musculus with 6 samples.

Results

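The messenger RNAs of oxidative phosphorylation were followed in mouse MLL-AF9 leukemia, in both of the genomes that encode the respiratory chain. Members were the protein-coding genes of the mitochondrial chromosome, together with the nuclear protein-coding genes whose symbols begin with Nduf, Atp5 or Uqc, the Cox4 to Cox8 families, and Sdha to Sdhd. This gave 113 rows of 56748 in the deposited table, 100 nuclear and 13 mitochondrial. They carry 112 symbols, because Atp5o is listed in 2 rows, 1 of which (ENSMUSG00000116933) had no count in any library. Of the 113 rows, 106 had enough counts to be tested, 93 nuclear and all 13 mitochondrial, among 15963 genes tested in all.

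The respiratory chain sits in the inner mitochondrial membrane. Complexes I (NADH dehydrogenase) and II (succinate dehydrogenase) pass electrons to ubiquinone, complex III passes them on to cytochrome c and complex IV (cytochrome c oxidase) to oxygen, while complexes I, III and IV pump protons that drive complex V, the ATP synthase. Most subunits are encoded in the nucleus and imported, whereas a few hydrophobic core subunits of complexes I, III, IV and V are transcribed from the small circular mitochondrial genome. Stem cells of acute myeloid leukemia are known to rely on oxidative phosphorylation for energy.

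Bulk RNA sequencing compared 3 libraries labelled Rbm5 KO (numbers 31, 32 and 40) with 3 labelled Rbm5 WT (numbers 25, 27 and 29), all of them labelled as MLL-AF9 bone marrow of mice. RBM5 is an RNA-binding protein of pre-mRNA splicing, and MLL-AF9 is a fusion oncoprotein that turns myeloid progenitors into leukemia, carried by both groups. The title of the series concerns RBM5 in leukemia stem cells and names MYC as its partner. The labels call the replicates independent but give the source both as whole marrow and as a culture, and state neither age, sex, strain nor the way Rbm5 was deleted, so p-values measure the spread between these 6 samples, whatever its origin.

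Totals ran from 26359299 to 31807588 counts per library. Rbm5 was no lower where the label says knockout. It stood at 269.0, 266.7 and 245.3 CPM in knockout libraries 31, 32 and 40, against 227.5, 214.1 and 173.6 CPM in wild-type libraries 25, 27 and 29, with a log2 fold change of 0.34 ± 0.12 (SE) and an adjusted p of 0.107. CPM are counts scaled to a library's TMM-adjusted size throughout, and fold changes are knockout over wild type. The Y-linked gene Ddx3y had 2645, 2674 and 3311 counts in the knockout libraries and 0 in each of the wild-type libraries. The X-linked gene Xist had 350, 5027 and 795 counts in knockout libraries 31, 32 and 40. In wild-type libraries 25, 27 and 29, Xist had 55246, 39237 and 40004 counts. Sex and genotype label therefore cannot be told apart. Every knockout library held some Xist, library 32 the most. Whether a library mixed cells of both sexes was not tested. All 20 of 20 listed markers of the mature neutrophil had every knockout library above every wild-type library, 15 of them past the test. Their summed level was 13939 to 31083 CPM in knockout libraries against 1419 to 4237 CPM in wild-type libraries. Of all genes tested, 17.2% had every knockout library above every wild-type library, and 5.45% passed the test as higher and 3.12% as lower. Monocyte and macrophage markers summed to 3947 to 6183 CPM in knockout libraries and 1909 to 2759 CPM in wild-type libraries, and 3 of 15 passed the test, all higher. Of the markers of other cells of whole marrow, 5 of 10 erythroid and 6 of 13 lymphoid genes were too low to test. Of those tested, Hbb-bs was higher at 1.01 CPM in knockout libraries and 0.113 CPM in wild-type libraries (adjusted p 0.0238), and no lymphoid gene passed, with Ighm at 112.6 CPM in knockout libraries and 101.3 CPM in wild-type libraries. Of 12 leukemia and progenitor markers, 3 were higher by the test, Itgam at 1.03, Prtn3 at 0.78 and Spi1 at 0.43. Another 2 were lower, Ctsg at -0.63 and Hoxa9 at -1.20 (adjusted p 0.0375). Hoxa9 lies on chromosome 6, whose genes are described below. In bulk RNA, fewer cells of a type and less RNA per cell cannot be told apart, and the part of the neutrophil and monocyte markers in the values below was not tested.

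The sequences below belong to the genes the results turn on. Promoters are shown for the 3 nuclear members that passed the test, as RefSeq gives them on GRCm38.p6 from 250 bases before to 50 bases after the gene's start, on the gene's own strand. Capitals mark 4 motifs searched on both strands: the E-box CACGTG, the ETS core CCGGAA, the palindrome bound by NRF1 (GCGCAT followed directly by GCGC), and CCAAT. Atp5g1 lies at chr11:96075582-96075881, Ndufv1 at chr19:4012706-4013005 and Ndufa4 at chr6:11907401-11907700, all on the minus strand. The Atp5g1 and Ndufv1 windows fall outside the gene positions given below from the deposited table. Those positions therefore follow another build and cannot be set against these.
Atp5g1 promoter: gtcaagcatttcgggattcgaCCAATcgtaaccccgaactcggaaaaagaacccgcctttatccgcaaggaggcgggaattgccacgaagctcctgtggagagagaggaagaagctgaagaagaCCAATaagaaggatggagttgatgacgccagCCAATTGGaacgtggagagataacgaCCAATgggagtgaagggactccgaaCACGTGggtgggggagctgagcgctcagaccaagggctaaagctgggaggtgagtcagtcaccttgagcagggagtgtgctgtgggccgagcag
Ndufv1 promoter: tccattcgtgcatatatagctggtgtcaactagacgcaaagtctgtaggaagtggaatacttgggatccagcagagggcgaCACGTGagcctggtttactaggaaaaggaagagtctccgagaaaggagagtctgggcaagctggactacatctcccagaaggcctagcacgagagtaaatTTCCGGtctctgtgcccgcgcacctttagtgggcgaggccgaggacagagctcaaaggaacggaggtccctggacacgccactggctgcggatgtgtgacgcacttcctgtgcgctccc
Ndufa4 promoter: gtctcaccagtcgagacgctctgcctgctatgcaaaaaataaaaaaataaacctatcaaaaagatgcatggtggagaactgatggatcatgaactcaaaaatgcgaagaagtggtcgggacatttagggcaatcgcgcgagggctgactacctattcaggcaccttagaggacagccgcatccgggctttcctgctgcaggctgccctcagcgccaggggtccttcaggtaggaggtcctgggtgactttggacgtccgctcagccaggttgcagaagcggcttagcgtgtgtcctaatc
The Atp5g1 window held 1 CACGTG and 5 CCAAT, counting both strands of an overlapping pair. The Ndufv1 window held 1 CACGTG and 1 CCGGAA, and that of Ndufa4 held none of the 4. Of the 100 nuclear rows, 81 were matched to a RefSeq promoter, which is 80 genes. Among those 80, CACGTG occurred in 8.8%, CCGGAA in 35.0%, the NRF1 palindrome in 8.8% and CCAAT in 45.0%. The shares among 10727 tested genes with a promoter of the same length were 11.5%, 30.5%, 2.2% and 43.2% in the same order, and among all 27025 genes 8.1%, 16.7%, 1.1% and 41.1%. These matches describe letters in a window and show no binding.

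Mitochondrial genes have near-identical copies in the nucleus, and 1 run of them on chromosome 1 bears directly on the counts. The first 60 bases of mt-Co3, the gene of cytochrome c oxidase subunit 3, are shown with those of its copy Gm28437 (chr1:24652270-24653052 in the deposited table, minus strand). For mt-Co1, which encodes the catalytic subunit of the same complex, the window is bases 1054 to 1113 of the transcript and is set against bases 1 to 60 of its copy Gm29216. Sequences are from the GENCODE M21 transcripts, and capitals mark bases that differ.
mt-Co3: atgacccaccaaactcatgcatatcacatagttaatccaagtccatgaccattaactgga
Gm28437: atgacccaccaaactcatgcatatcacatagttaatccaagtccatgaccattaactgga
mt-Co1: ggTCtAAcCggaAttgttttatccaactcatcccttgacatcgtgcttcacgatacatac
Gm29216: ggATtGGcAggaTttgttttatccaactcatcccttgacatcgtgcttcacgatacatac
The copies of mt-Co2, mt-Atp6, mt-Co3 and mt-Nd4l cover at least 99.0% of the gene with 0 differing bases, and that of mt-Nd3 differs at 1 of 345 bases. The copy of mt-Nd4 covers 63.6% of the gene, also with 0 differences, whereas that of mt-Co1 covers 31.8% and differs at 6 of 492 bases. No copy of mt-Atp8 was found among annotated genes on chromosome 1, although mt-Atp8 lies between mt-Co2 and mt-Atp6. No annotated copy sharing 95% identity over 100 bases was found for mt-Cytb, mt-Nd1 or mt-Nd6, and that of mt-Nd2 (Gm13339, 96.7% identical over 510 bases) held 8 counts over all libraries.

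Across the members, most differences lay on the lower side and few passed the test. Of 106 tested, 4 were lower in knockout libraries at an adjusted p below 0.05 by edgeR's quasi-likelihood test with Benjamini-Hochberg adjustment over all genes. That is 3.77% of the members, near the 3.12% of all 15963 genes that were lower. No member was higher by this test, against 5.45% of all genes. At an unadjusted p below 0.05, 23 members were lower, which is 21.7% of them beside 12.4% of all genes, and 1 was higher beside 14.5% of all genes. In 34 members (32.1%) every knockout library was below every wild-type library, beside 16.5% of all genes. In 1 member, Ndufb11b, every knockout library was above, beside 17.2% of all genes. The log2 fold change was negative in 81 members, or 76.4%, against 51.2% of all genes tested, and its median was -0.15 among members and -0.01 among all genes. DESeq2 on the same counts called 10 members lower and 0 higher, and called 6.6% of all genes lower.

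The negative side held under other scalings, while its extent did not stay the same. The number of negative members was 80 with DESeq2's size factors, 88 with upper-quartile factors and 100 with total counts alone. Total counts alone also moved the median of all genes to -0.13, and split the calls over all genes into 682 lower and 597 higher, beside 498 lower and 870 higher with TMM. Relative to the median of all genes under the same scaling, the nuclear median was -0.11 with each of the 4 scalings, and the mitochondrial median lay between -0.46 and -0.45. Because a scaling shifts all genes nearly alike, these relative values could hardly move.

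Atp5g1, 1 of 3 genes for subunit c, which forms the proton-carrying ring of the ATP synthase, had the smallest p of all members. Atp5g1 (ENSMUSG00000006057, chr11:95959678-95966496, minus strand; coordinates follow the deposited table, which names no build) had 56.8, 66.2 and 55.2 CPM in knockout libraries 31, 32 and 40, against 89.2, 77.3 and 79.8 CPM in wild-type libraries 25, 27 and 29. The groups did not overlap, and wild-type library 25 was the highest. The means were 59.4 ± 5.97 CPM in knockout libraries and 82.1 ± 6.27 CPM in wild-type libraries (SD, n = 3 each), a log2 fold change of -0.47 ± 0.11 (SE; 95% interval -0.72 to -0.22) with an adjusted p of 0.0382. Its transcript shares 411 bases at 99.8% identity with the pseudogene Gm10039, which had 23.5, 26.1 and 19.8 CPM in knockout libraries and 23.1, 19.3 and 23.9 CPM in wild-type libraries. With the counts of both added, the log2 fold change was -0.34 and the adjusted p 0.0935.

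Ndufv1 encodes the complex I subunit that carries FMN and accepts electrons from NADH. Ndufv1 (ENSMUSG00000037916, chr19:4057384-4062806, minus strand) had 72.0, 69.6 and 60.8 CPM in knockout libraries and 86.2, 87.4 and 90.2 CPM in wild-type libraries. The wild-type values lay close together, and knockout library 40 was the lowest of all. The log2 fold change was -0.38 ± 0.10 (SE; 95% interval -0.60 to -0.16), with an adjusted p of 0.0469. Ndufa4 was first assigned to complex I and is now counted as a subunit of complex IV. Ndufa4 (ENSMUSG00000029632, chr6:11900291-11907496, minus strand) had 53.7, 62.5 and 69.7 CPM in knockout libraries and 80.3, 88.7 and 113.8 CPM in wild-type libraries. All knockout values were below all wild-type values, with wild-type library 29 well above the rest. Its log2 fold change was -0.61 ± 0.15 (SE; 95% interval -0.96 to -0.25), with an adjusted p of 0.0484.

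Mitochondrially encoded mt-Nd2, a membrane-arm core subunit of complex I, was the fourth. At MT:3914-4951 on the plus strand, mt-Nd2 (ENSMUSG00000064345) had 561.6, 669.1 and 561.4 CPM in knockout libraries and 853.4, 742.4 and 959.5 CPM in wild-type libraries. Knockout library 32 was the highest of its group but below wild-type library 27, the lowest of the other. The log2 fold change was -0.51 ± 0.13 (SE; 95% interval -0.80 to -0.22), with an adjusted p of 0.0463. All 4 calls sat close to the threshold. Leaving out 1 library at a time kept Atp5g1 past it in 1 of 6 fits (adjusted p 0.0332 to 0.126), mt-Nd2 in 2 of 6 (0.0475 to 0.157), and Ndufv1 (0.0741 to 0.138) and Ndufa4 (0.0503 to 0.131) in 0 of 6.

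**Figure D1:**
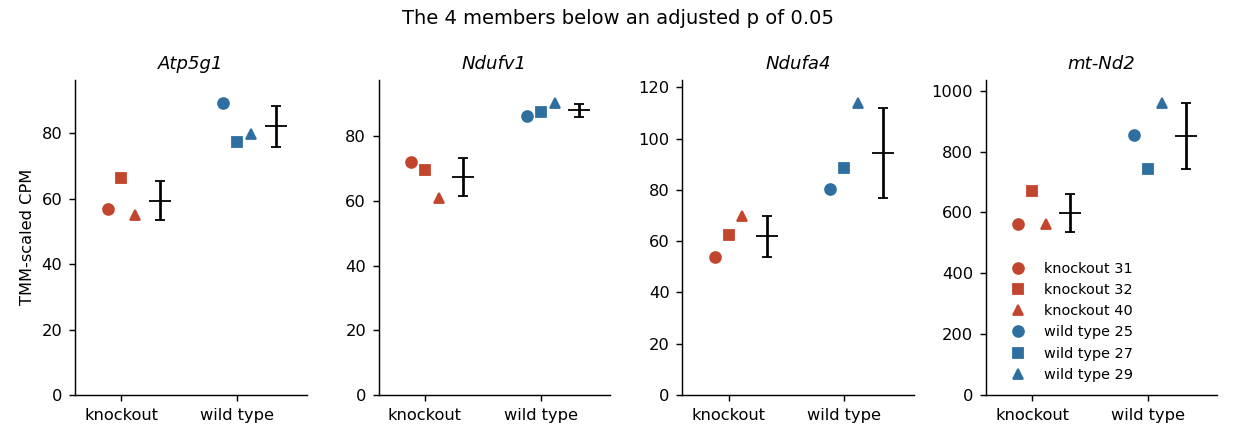
TMM-scaled CPM of Atp5g1, Ndufv1, Ndufa4 and mt-Nd2 in each library, knockout on the left and wild type on the right of each panel, with the mean and SD (n = 3) as a bar beside the points and each axis starting at 0. In all 4 genes the 3 knockout libraries lie below the 3 wild-type libraries.

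The nuclear genes of complex I numbered 46, all tested, with 31 negative log2 fold changes and a median of -0.11. The 7 core subunits carry the flavin and the iron-sulfur clusters. Beside Ndufv1, the iron-sulfur subunits Ndufs8, Ndufs7 and Ndufs3 had log2 fold changes of -0.24, -0.19 and -0.19, and the groups overlapped in each of the 3. Ndufv2 and Ndufs1, which hold further clusters, stood at -0.09 and -0.02. None of these 5 passed the test, and their adjusted p-values were 0.265 to 0.905.

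Among the 30 accessory subunits of complex I, 19 were negative, 8 did not overlap between groups, 5 had an unadjusted p below 0.05 and 0 passed the edgeR test. These are shares of 26.7% and 16.7%, beside 16.5% and 12.4% of all genes. DESeq2 called 2 of them lower, Ndufb2 and Ndufa10. Ndufb2 had 9.56, 8.49 and 7.93 CPM in knockout libraries and 13.5, 14.7 and 11.7 CPM in wild-type libraries, with a log2 fold change of -0.62 ± 0.18 (SE) and an adjusted p of 0.0752. The difference is visible in each library, at a low level, and the gene overlaps 146 bases of Braf on the opposite strand, so reads there may be shared. Ndufa10 had 66.1, 77.4 and 65.1 CPM in knockout libraries and 86.0, 86.7 and 88.1 CPM in wild-type libraries, a log2 fold change of -0.32 ± 0.10 (SE), with an adjusted p of 0.0786. Again the wild-type values were tight and knockout library 32 came nearest to them. Ndufab1, the mitochondrial acyl carrier protein, stood at -0.35, Ndufb8 at -0.26 and Ndufa7 at -0.24, with adjusted p-values of 0.123, 0.166 and 0.171. Others of this class were level between groups, such as Ndufb11, which is encoded on the X chromosome, at 0.02, Ndufa8 at 0.02 and Ndufs6 at 0.05, with 95% intervals of -0.24 to 0.28, -0.20 to 0.25 and -0.23 to 0.33.

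Ndufa12 varied widely within groups. It had 26.2, 9.33 and 8.58 CPM in knockout libraries and 12.9, 12.6 and 20.5 CPM in wild-type libraries. Knockout library 31 was the highest of the 6, and the other knockout libraries were the lowest. The copy Ndufa12-ps is 99.5% identical to it over 402 bases, and the sum of both genes was less scattered, at 32.1, 17.5 and 20.7 CPM in knockout libraries and 25.9, 25.7 and 32.1 CPM in wild-type libraries. The copy-like gene Ndufb11b was the member with the largest positive value, 1.64 on the log2 scale with an adjusted p of 0.139, from only 14, 10 and 20 counts in knockout libraries and 3, 4 and 10 counts in wild-type libraries.

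The 8 complex I assembly factors, chaperones that build the complex without staying in it, had a median of -0.33, 6 negative values and 0 calls. Ndufaf6 had 5.13, 4.89 and 4.58 CPM in knockout libraries and 6.26, 7.29 and 7.45 CPM in wild-type libraries, with a log2 fold change of -0.52 ± 0.22 (SE) and an adjusted p of 0.169. The groups were apart, at a level of few CPM. Ndufaf4 stood at -0.50 with overlapping groups, Ndufaf8 at -0.38 and Ndufaf1 at -0.36, while Ndufaf7, a methyltransferase of the matrix, stood at 0.23.

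All 4 genes of complex II, which is encoded entirely in the nucleus, were negative with a median of -0.18. Of these 4, 1 had an unadjusted p below 0.05 and 0 passed the test by edgeR or DESeq2. The flavoprotein gene Sdha had 207.6, 208.9 and 183.5 CPM in knockout libraries and 251.9, 232.2 and 244.5 CPM in wild-type libraries. The groups did not overlap, and the log2 fold change was -0.28 ± 0.09 (SE) with an adjusted p of 0.0984. The membrane anchor Sdhc also had groups apart, at 72.3, 70.4 and 61.9 CPM in knockout libraries and 77.3, 79.4 and 80.6 CPM in wild-type libraries, a log2 fold change of -0.21. The other anchor Sdhd and the iron-sulfur subunit Sdhb stood at -0.14 and -0.07, with groups that overlapped.

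In complex III, 10 of 11 nuclear genes were negative with a median of -0.19. Of these 11, 2 had an unadjusted p below 0.05 and 0 passed the test by edgeR or DESeq2. Uqcrfs1, the Rieske iron-sulfur protein, had means of 77.9 ± 3.12 CPM in knockout libraries and 78.0 ± 4.71 CPM in wild-type libraries (SD, n = 3 each), with a log2 fold change whose 95% interval was -0.21 to 0.20. The core proteins Uqcrc1 and Uqcrc2 stood at -0.05 and -0.10. A further 3 small accessory subunits had groups that did not overlap, Uqcr10 at -0.27, Uqcr11 at -0.25 and Uqcrq at -0.20, while Uqcrh and Uqcrb stood at -0.02 and 0.01. All 3 assembly factors, which aid the synthesis and insertion of cytochrome b, had every knockout library below every wild-type library. Groups lay apart on the lower side in 54.5% of the 11 genes, beside 16.5% of all genes. Uqcc1 had 32.1, 32.99 and 32.6 CPM in knockout libraries and 39.6, 35.7 and 43.4 CPM in wild-type libraries, with a log2 fold change of -0.28 ± 0.11 (SE) and an adjusted p of 0.153. Uqcc2 and Uqcc3 stood at -0.26 and -0.19, with adjusted p-values of 0.239 and 0.383.

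In complex IV, the 12 accessory subunits of the general form were all negative, but with a median of -0.09, the smallest of the 5 complexes. Under total counts alone the complex IV median was -0.22, where that of all genes was -0.13. Ndufa4 was the only one of the 12 to pass the test. Cox7c had 45.8, 42.6 and 48.1 CPM in knockout libraries and 54.9, 51.2 and 53.1 CPM in wild-type libraries, a log2 fold change of -0.22 with groups apart and an adjusted p of 0.180. The remaining 10 overlapped between groups and ranged from -0.16 for Cox6a1 and Cox6c to -0.02 for Cox7a2. Cox4i1, through which ATP slows the oxidase, had 245.7, 272.9 and 272.6 CPM in knockout libraries and 290.1, 271.0 and 279.3 CPM in wild-type libraries, a log2 fold change of -0.09 with a 95% interval of -0.29 to 0.12. Cox5a and Cox5b stood at -0.04 and -0.09, and the tethering factor Cox7a2l at -0.09.

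Several complex IV subunits exist as a general form and a form of heart, muscle, lung or testis. On the scale of CPM per kb of the table's gene length, averaged over each group, the general form led in every pair. Cox4i1 stood at 170 CPM per kb in knockout libraries and 181 in wild-type libraries, and the lung form Cox4i2 at 0.178 in knockout and 0.158 in wild-type libraries. Cox6a1 stood at 186 in knockout and 208 in wild-type libraries, and the muscle form Cox6a2 at 0.0783 in knockout and 0.457 in wild-type libraries. Cox8a stood at 173 in knockout and 188 in wild-type libraries, and the muscle form Cox8b at 0.570 in knockout and 0.269 in wild-type libraries. In these 3 pairs the restricted form was at the edge of detection. Cox7a2 stood at 67.6 CPM per kb in knockout and 68.6 in wild-type libraries, and the muscle form Cox7a1 at 2.75 in knockout and 2.49 in wild-type libraries. Cox6b1 stood at 107 in knockout and 110 in wild-type libraries, and the testis form Cox6b2 at 4.64 in knockout and 9.26 in wild-type libraries. Ndufa4 stood at 44.8 in knockout and 68.2 in wild-type libraries, and its hypoxia-induced paralog Ndufa4l2 at 0.0340 in knockout and 0.00895 in wild-type libraries.

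Of these restricted forms, 6 were too low to test: Cox4i2, Cox6a2, Cox8b, Cox8c, Cox7b2 and Ndufa4l2. Cox8c and Cox7b2 had 0 counts in all 6 libraries, and 3 counts over a group, the limit that a count of 0 allows, correspond to 0.0387 CPM in knockout libraries and 0.0318 CPM in wild-type libraries. Cox6b2 was the restricted form with the highest level and varied within a group. It had 2.71, 10.3 and 2.41 CPM in knockout libraries and 13.03, 10.7 and 7.07 CPM in wild-type libraries. Knockout library 32 sat among the wild-type libraries, and the other knockout libraries were well below them. The log2 fold change was -0.998 with an adjusted p of 0.321. Without knockout library 32 it was -2.00 with an adjusted p of 0.0229. Cox7a1 was likewise highest in knockout library 32, with 0.855, 2.91 and 0.654 CPM in knockout libraries and 1.21, 1.04 and 1.74 CPM in wild-type libraries.

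**Figure D2:**
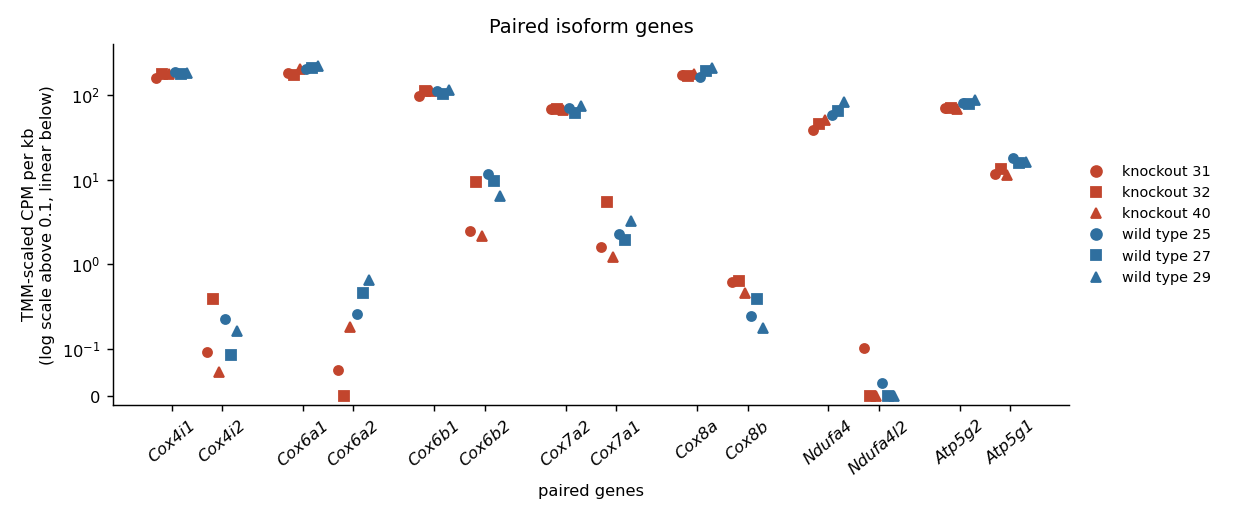
TMM-scaled CPM per kb of gene length in each library for 7 pairs of isoform genes, on a log scale above 0.1 and a linear scale below, with knockout libraries left of wild-type libraries. The general form lies above its partner in every library of the 6 complex IV pairs, and Atp5g2 lies above Atp5g1 in every library.

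In complex V, 17 of 18 nuclear rows were tested, 11 were negative and the median was -0.14. The 12 tested core subunits, of the catalytic head, stalk and proton ring, had a median of -0.21, with 9 negative and 7 groups apart, and 1, Atp5g1, passed the test. The last 2 are shares of 58.3% and 8.33%, beside 16.5% and 3.12% of all genes. The 5 small accessory subunits had a median of 0.02 and 0 passed. Values of the 2 classes overlapped, from -0.47 to 0.09 for the core and from -0.18 to 0.19 for the accessory subunits, and the difference between them was not tested. Beside Atp5g1, the core genes with groups apart were Atp5d, Atp5g2, Atp5a1, Atp5o, Atp5g3 and Atp5b, with log2 fold changes of -0.26 to -0.21 and adjusted p-values of 0.122 to 0.233, so none of these 6 passed. The catalytic beta chain Atp5b had 788.5, 723.6 and 711.5 CPM in knockout libraries and 799.9, 829.0 and 952.0 CPM in wild-type libraries. Knockout library 31 came close to wild-type library 25. The alpha chain Atp5a1 had 703.1, 712.7 and 666.0 CPM in knockout libraries and 752.6, 839.0 and 894.1 CPM in wild-type libraries, a log2 fold change of -0.26. The delta chain Atp5d, which couples the head to the ring, had 110.2, 108.9 and 107.8 CPM in knockout libraries and 144.8, 126.3 and 121.2 CPM in wild-type libraries. The gamma chain Atp5c1 stood at -0.08, and the stalk genes Atp5pb and Atp5h at 0.09 and 0.01, with overlapping groups. Atpif1, the inhibitor of the enzyme's reverse reaction, is outside the gene-name rule and stood at -0.11 with an adjusted p of 0.637.

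The 3 subunit c genes encode the same mature protein with different import sequences. Per kb of gene length, Atp5g2 was the highest, with 69.6 CPM per kb in knockout libraries and 82.0 in wild-type libraries. Atp5g3 followed with 54.4 CPM per kb in knockout and 63.1 in wild-type libraries. Atp5g1 was lowest with 12.1 in knockout and 16.7 in wild-type libraries. The gene lengths used were 4912 bases for Atp5g1, 1675 for Atp5g2 and 2181 for Atp5g3, and the order and shares rest on them. In CPM without lengths, Atp5g3 stood at 118.7 in knockout and 137.7 in wild-type libraries, and Atp5g2 at 116.5 and 137.4. Atp5g1 stood at 59.4 and 82.1 CPM in the same order. All 3 genes had groups that did not overlap, although only Atp5g1 passed the test. The share of Atp5g1 in their sum per kb was 8.73%, 9.48% and 8.40% in knockout libraries, against 11.5%, 9.83% and 9.67% in wild-type libraries. The means were 8.87 ± 0.551% in knockout libraries and 10.3 ± 1.03% in wild-type libraries (SD, n = 3 each), with knockout library 32 close to wild-type libraries 27 and 29.

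**Figure D3:**
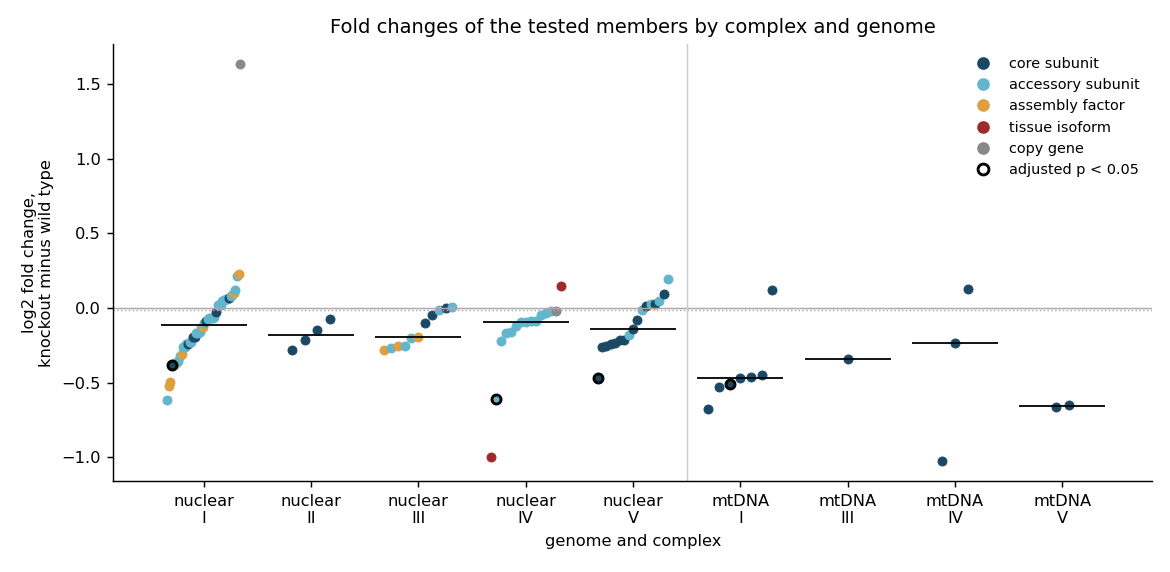
Log2 fold change, knockout minus wild type, of the 106 tested members by genome and complex. Each point is a gene coloured by its role, a black ring marks an adjusted p below 0.05, black lines are medians, and the dotted line is the median of all genes tested. The nuclear medians lie between -0.19 and -0.09, and the mitochondrial medians between -0.66 and -0.24. The -0.66 is that of mt-Atp6 and mt-Atp8 alone, and the -0.24 that of mt-Co1, mt-Co2 and mt-Co3. Of these, mt-Atp6, mt-Co2 and mt-Co3 have identical copies in the nucleus, and mt-Atp8 had few counts.

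Mitochondrial DNA is transcribed from both strands into long precursors that are cut into single mRNAs, so its genes share transcription and can differ in decay. Of the 13 mRNAs, 11 were negative, with a median of -0.47, and 12 were negative under total counts alone and 13 by limma-voom. The genes fell into 2 kinds by level. The 7 outside the run from mt-Co2 to mt-Nd4l stood at 561 to 5503 CPM per kb in knockout libraries and 778 to 6477 CPM per kb in wild-type libraries. The 6 inside that run stood at 1.49 to 91.6 CPM per kb in knockout libraries and 2.32 to 134 CPM per kb in wild-type libraries.

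All 7 of the first kind were negative, from -0.53 to -0.24 with a median of -0.46, and in 6 of them every knockout library was below every wild-type library. That is 85.7% of the 7, beside 16.5% of all genes. The membrane-arm core subunit mt-Nd1 had 1303, 1958 and 1624 CPM in knockout libraries and 2077, 2250 and 2732 CPM in wild-type libraries, a log2 fold change of -0.53 ± 0.17 (SE) with an adjusted p of 0.0906. Knockout library 31 was the lowest and wild-type library 29 the highest. For mt-Nd5, another proton-pumping subunit, the values were 1289, 1421 and 1149 CPM in knockout libraries and 1716, 1634 and 1915 CPM in wild-type libraries, a log2 fold change of -0.45 ± 0.12 (SE) with an adjusted p of 0.0525. Knockout library 40 was the lowest and wild-type library 29 again the highest. The complex III subunit mt-Cytb, cytochrome b, had 1795, 1902 and 1841 CPM in knockout libraries and 2102, 2195 and 2703 CPM in wild-type libraries, a log2 fold change of -0.34 ± 0.12 (SE) with an adjusted p of 0.116. Here the knockout values were tight and the spread was in the wild type.

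Along the same genome, mt-Nd4 stood at -0.46 with an adjusted p of 0.0648, and mt-Nd6, the only one of the 13 on the minus strand, at -0.47 with an adjusted p of 0.0677. Here mt-Nd6 had 305.4, 332.3 and 236.5 CPM in knockout libraries and 399.9, 382.6 and 429.3 CPM in wild-type libraries. It overlaps mt-Nd5 by 14 bases on the opposite strand, and no source used here says whether the counting was stranded. The most abundant mRNA, mt-Co1, had 7642, 8950 and 8914 CPM in knockout libraries and 8322, 9589 and 12108 CPM in wild-type libraries. Its groups overlapped, and the log2 fold change was -0.24 with a 95% interval of -0.58 to 0.11. DESeq2 called mt-Nd1, mt-Nd2, mt-Nd4, mt-Nd5 and mt-Nd6 lower, and limma-voom mt-Nd2 and mt-Nd5. The mitochondrial ribosomal RNAs mt-Rnr1 and mt-Rnr2, which are not members, stood at 0.01 and 0.30 with adjusted p-values of 0.968 and 0.461. Their levels were far below that of mt-Co1, at 147.4 and 237.6 CPM in knockout libraries and 146.0 and 192.4 CPM in wild-type libraries. How much of these RNAs the library preparation had removed was not tested, so they are no measure beside the mRNAs.

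The 6 genes of the copied run behaved otherwise. The values of mt-Co3 were 18.7, 115.9 and 20.5 CPM in knockout libraries and 51.6, 86.0 and 178.5 CPM in wild-type libraries. Knockout library 32 was several times as high as its fellows and overlapped the wild type, and the log2 fold change of -1.03 had a 95% interval of -3.15 to 1.10. The ATP synthase subunit gene mt-Atp6 had 26.5, 106.3 and 36.4 CPM in knockout libraries and 138.1, 41.8 and 87.9 CPM in wild-type libraries. The second oxidase core subunit mt-Co2 had 37.5, 123.1 and 27.5 CPM in knockout libraries and 38.3, 42.8 and 91.2 CPM in wild-type libraries. In all 3 genes knockout library 32 stood far above the other knockout libraries. The level of mt-Atp8 was under 1 CPM in every library, and that of mt-Nd3 and mt-Nd4l at most 11.3 CPM. Of these 6, 0 passed the test, with adjusted p-values of 0.346 to 0.927.

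The copies themselves carried counts of the same order as these genes, and 3 of 7 passed the test as lower, beside 3.12% of all genes. Gm28437, the copy of mt-Co3, had 21.4, 21.3 and 18.5 CPM in knockout libraries and 31.4, 31.7 and 32.8 CPM in wild-type libraries, a log2 fold change of -0.65 with an adjusted p of 0.0205. Gm28661, the copy of mt-Co2, had 29.8, 23.9 and 25.8 CPM in knockout libraries and 65.1, 40.9 and 46.4 CPM in wild-type libraries, a log2 fold change of -0.94 with an adjusted p of 0.0240. Gm28439, the copy of part of mt-Nd4, stood at -0.80 with an adjusted p of 0.0380. Gm28437 and Gm28661 were less scattered than the genes they match, and all 3 had groups apart. Gm10222 and Gm29216, the copies of mt-Nd4l and mt-Co1, also had groups apart on the lower side, with adjusted p-values of 0.227 and 0.142. Gm10925 and Gm28438 overlapped between groups. Of all genes, 16.5% had groups apart on the lower side. Because the bases are identical, the authors' counting decides which of the pair receives a read, and the genes of the run are reported as uncertain. With each pair added together, the log2 fold change was -0.28 for mt-Co2, -0.53 for mt-Atp6, -0.93 for mt-Co3, 0.08 for mt-Nd3 and -0.65 for mt-Nd4l, none past the threshold. The sums left mt-Nd4 at -0.47 and mt-Co1 at -0.24, since their copies held few counts beside them.

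**Figure D4:**
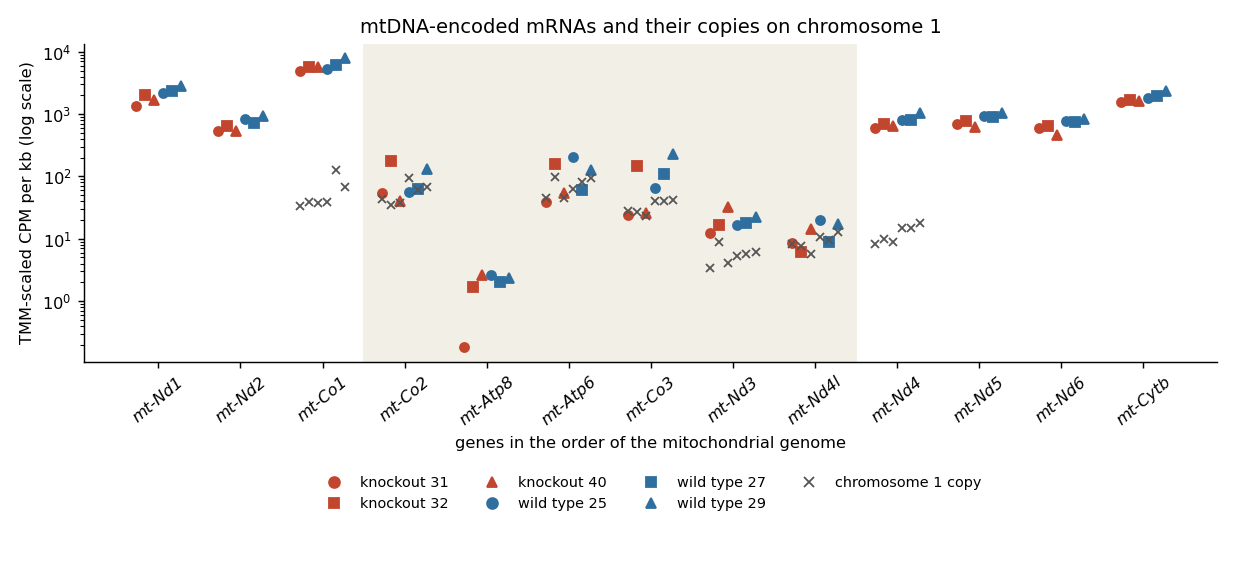
TMM-scaled CPM per kb, on a log scale, of the 13 mitochondrial mRNAs in genome order, with knockout libraries left of wild-type libraries at each gene and crosses for the chromosome 1 copy in the same library order. The shaded run from mt-Co2 to mt-Nd4l lies below 250 CPM per kb and close to its copies, while the other 7 genes lie above 400.

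Summed over members, both genomes were lower in knockout libraries. The 13 mitochondrial genes took 1.34%, 1.64% and 1.39% of all counts in knockout libraries 31, 32 and 40, against 1.80%, 1.92% and 2.27% in wild-type libraries 25, 27 and 29. The nuclear members took 0.633%, 0.654% and 0.599% in knockout libraries, against 0.751%, 0.752% and 0.773% in wild-type libraries. These are shares of raw counts, which move with the rest of the library. On the TMM scale the nuclear sum was 6565 ± 53.6 CPM in knockout libraries and 7282 ± 385 CPM in wild-type libraries, and the mitochondrial sum 15220 ± 1369 CPM in knockout libraries and 19191 ± 3067 CPM in wild-type libraries (SD, n = 3 each). The ratio of mitochondrial to nuclear counts was 2.12, 2.51 and 2.32 in knockout libraries and 2.40, 2.55 and 2.93 in wild-type libraries, so the groups overlapped in the balance of the 2 genomes.

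Wild-type library 29 was the highest library for most groups of members. Over nuclear members, the median log2 difference from the wild-type mean was -0.17, -0.10 and -0.10 in knockout libraries 31, 32 and 40. The same measure was -0.03 in wild-type library 25, -0.05 in library 27 and 0.07 in library 29. Without library 29 the nuclear median fold change was -0.06, against -0.12 with it. Over the 7 mitochondrial genes outside the copied run, the same measure was -0.44, -0.29 and -0.53 in knockout libraries 31, 32 and 40, and -0.11, -0.08 and 0.22 in wild-type libraries 25, 27 and 29. Without library 29 the fold change of these 7 had a median of -0.38.

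**Figure D5:**
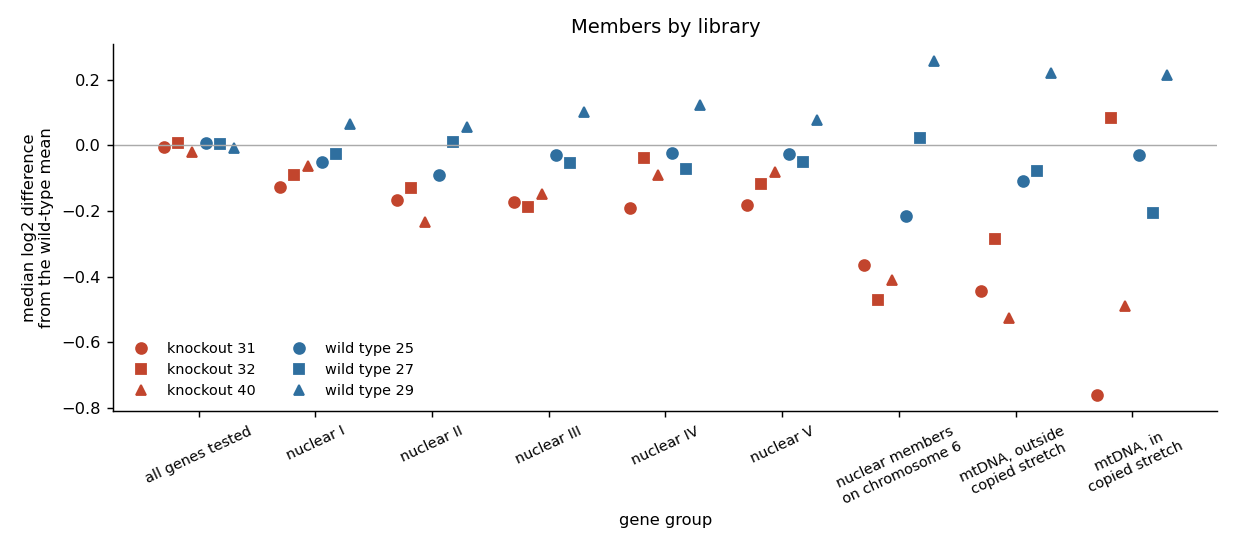
Median log2 difference of each library from the wild-type mean, for all genes tested and for groups of members, with knockout libraries left of wild-type libraries. All genes lie near 0, knockout libraries lie below wild-type libraries in most groups of members, and wild-type library 29 is the highest library in every group of members.

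Chromosome 6 stood apart. Its 4 nuclear members, Ndufa4, Ndufb2, Ndufa9 and Ndufa5, had a median of -0.49, while the 89 tested nuclear members elsewhere had a median of -0.10 with 66 negative and 2 calls. All 444 genes of chromosome 6 with a mean of at least 10 CPM showed a median of -0.27, with 340 negative, 53 lower and 9 higher by the test. That is 76.6% negative and 11.9% lower, beside 49.8% and 3.33% of all 9309 genes at that level. Those 9309 genes had a median of 0.001, and 672 of them were higher. Against the wild-type mean, the median of the 444 chromosome 6 genes was -0.21, -0.25 and -0.24 in knockout libraries 31, 32 and 40. The same measure was -0.26, 0.13 and 0.12 in wild-type libraries 25, 27 and 29, so wild-type library 25 lay with the knockout libraries. Ndufa9, an accessory subunit of complex I, followed that order, with 60.9, 57.1 and 57.4 CPM in knockout libraries and 55.1, 77.3 and 95.3 CPM in wild-type libraries. Its log2 fold change of -0.38 became 0.07 without wild-type libraries 27 and 29. Ndufa4 and Ndufb2 were above every knockout value in wild-type library 25 as well, and the part of chromosome 6 in their values was not tested.

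Genes that serve the chain without being caught by the name rule were counted in lists, whose shares of lower calls stand beside the 3.12% of all genes. Of 5 tested other subunits and carriers, 5 were negative with a median of -0.13 and 0 passed. Among them were Cycs (cytochrome c) at -0.47 and Cyc1 at -0.13, with adjusted p-values of 0.192 and 0.387. Cycs lies on chromosome 6 and its groups overlapped. It had 101.3, 76.5 and 87.6 CPM in knockout libraries 31, 32 and 40, and 90.4, 118.4 and 157.6 CPM in wild-type libraries 25, 27 and 29. Of 40 tested assembly factors outside the rule, 32 were negative with a median of -0.23 and 1 (2.5%) was lower by the test. That was Cmc2, a factor of cytochrome c oxidase, with 24.8, 36.4 and 26.8 CPM in knockout libraries and 49.6, 46.8 and 51.8 CPM in wild-type libraries, a log2 fold change of -0.75 and an adjusted p of 0.0277. Of 18 genes of the tricarboxylic acid cycle and pyruvate dehydrogenase, 16 were negative with a median of -0.17 and 2 (11.1%) were lower, Suclg1 at -0.49 and Suclg2 at -0.92, with adjusted p-values of 0.0243 and 0.0442. Both encode subunits of succinyl-CoA ligase and lie on chromosome 6.

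Of 20 genes of mitochondrial DNA upkeep and transcription, 16 were negative with a median of -0.23 and 1 (5%) was lower, near the share of all genes. This was Ssbp1, the single-strand DNA-binding protein, on chromosome 6, at 30.6 ± 3.11 CPM in knockout libraries and 46.6 ± 5.03 CPM in wild-type libraries (SD, n = 3 each), a log2 fold change of -0.61 with an adjusted p of 0.0297. Polrmt, the mitochondrial RNA polymerase, and Tfam, its activator, stood at -0.39 and -0.38 with adjusted p-values of 0.0884 and 0.135. On the other side, Polg, the catalytic subunit of the mitochondrial DNA polymerase, and Mterf3, which represses mitochondrial transcription, had every knockout library above every wild-type library, at 0.26 and 0.16 with adjusted p-values of 0.105 and 0.415. They were the only 2 of the 20 genes apart on that side, beside 17.2% of all genes. Groups lay apart on the lower side in 8 (40%), Polrmt and Tfam among them, beside 16.5% of all genes. Of 22 tested genes of mitochondrial RNA processing and decay, 20 were negative with a median of -0.31, and 3 (13.6%) were lower: Ptcd3 at -0.54, Lrpprc at -0.51 and Mrpl12 at -0.51, with adjusted p-values of 0.0375, 0.0394 and 0.0441. Lrpprc protects most mitochondrial mRNAs from decay, and had 77.2, 83.6 and 65.3 CPM in knockout libraries and 118.5, 99.8 and 103.5 CPM in wild-type libraries. Ptcd3 belongs to the small mitochondrial ribosomal subunit and lies on chromosome 6, and Mrpl12 belongs to the large one.

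Of 12 tested regulators of mitochondrial gene expression, 0 were lower and 1 was higher, with a median of -0.01. Max, the dimer partner of MYC, stood at 0.43 with an adjusted p of 0.0410. Myc itself had 187.0, 225.9 and 158.6 CPM in knockout libraries and 223.3, 255.5 and 292.8 CPM in wild-type libraries, a log2 fold change of -0.43 with an adjusted p of 0.115. The coactivator Ppargc1b had 1.12, 3.78 and 0.53 CPM in knockout libraries and 6.18, 7.50 and 7.17 CPM in wild-type libraries, with groups apart, a log2 fold change of -1.93 and an adjusted p of 0.101. The nuclear factors Nrf1 and Gabpa, which bind the promoters of many respiratory genes, stood at -0.00 and -0.01. Nrf1 lies on chromosome 6. It had 62.2, 62.4 and 73.7 CPM in knockout libraries 31, 32 and 40, and 54.6, 69.8 and 74.0 CPM in wild-type libraries 25, 27 and 29.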

How the data were processed

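The authors' deposited table gives integer counts for each gene in 6 libraries, without normalization, with gene names, biotypes, lengths and coordinates. Salmon, limma, GRCm38 and mm10 are named, without a role, per the submitters' processing notes. The sources used here do not say whether the values are rounded Salmon estimates, how strand or multiply mapping reads were treated, or which build the coordinates follow. The table's positions of Atp5g1 and Ndufv1 do not meet their GRCm38.p6 promoters, so its coordinates are not on that build. Estimators divide reads among identical sequences and other counters drop them, which bears on members with near-identical copies. Of the 113 members, 112 were found in GENCODE M21, and 50 shared at least 100 bases at 95% identity or more with another gene's transcript.

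Counts were filtered by edgeR's filterByExpr (minimum count 10, minimum total 15), scaled by TMM and compared between labelled genotypes with the robust quasi-likelihood test of edgeR 4.0.16 in R 4.3.3, with no covariate. P-values were adjusted by Benjamini-Hochberg over 15963 genes at a threshold of 0.05, and the SE of a fold change was derived from its F statistic. The procedure was first tested on simulated data. Alternatives were other scalings and filters, DESeq2 1.42.0, limma-voom (limma 3.58.1) and fits without single libraries. Sums with pseudogene copies were added after the data were seen. No libraries were alike within sampling noise.

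Members, gene lists and the rule for named genes were chosen with earlier results of these data known. The rule named the mitochondrial genes, core subunits, isoform pairs, nuclear members past the threshold or among the 20 with the smallest p, and of each list up to 6 called members or else the 2 with the smallest p. Ndufa12, Ndufa5, Ndufa8, Ndufa9, Ndufb11, Ndufs6, most assembly factors, the remaining complex III, IV and V subunits, Cyc1, Polrmt, Tfam, Polg, Mterf3, Myc, Ppargc1b, Nrf1 and Gabpa were added after their values were seen. Some genes that the rule names are not reported here.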

Additional observations from a re-analysis of the deposited data

How the results depend on the processing

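No paired analysis was possible because the groups share no replicate number. With total counts alone, 6 mitochondrial members were lower, as with no filter, and with upper-quartile factors 3, against 1 as reported. DESeq2 called 5 nuclear and 5 mitochondrial members among 2607 genes, limma-voom 1 and 2, and the fit without robust shrinkage 1 and 0. Leaving out single libraries gave 0 to 2 nuclear and 0 to 1 mitochondrial members lower among 347 (without knockout 40) to 1227 genes (without knockout 32), and 0 of each, among 453 genes, without wild-type libraries 27 and 29; the lone wild-type library is then assumed to vary like the knockout. Among those single-library fits, 494, 648, 659 and 691 genes were called without knockout 31 and wild type 25, 27 and 29. No setting called a member higher. The 4 called members kept their direction in every setting, but were past the threshold in 10 of 16 for Atp5g1, 9 of 15 for mt-Nd2, 7 of 16 for Ndufv1 and 5 of 16 for Ndufa4.

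The following members changed sign, and the cause was not tested. On leaving out single libraries, log2 fold changes ranged from -0.122 to 0.0376 for Cox5a, -0.0932 to 0.0344 for Cox6b1, -0.814 to 0.498 for Cox7a1, -0.108 to 0.0383 for Cox7a2, -0.778 to 0.216 for Ndufa12, -0.0783 to 0.0514 for Ndufs1, -0.163 to 1.929e-04 for Ndufv2, -0.0974 to 0.0186 for Uqcrc1, -0.0526 to 0.0309 for Uqcrfs1, -0.823 to 0.628 for mt-Co2 and -0.376 to 0.380 for mt-Nd3. Without wild-type libraries 27 and 29, values were 0.0695 for Cox8a, 0.184 for Ndufa12, 0.0737 for Ndufa9, 0.0368 for Ndufs1, 0.0607 for Ndufv2, 0.0701 for Sdhb, 0.0447 for Sdhd, 0.0896 for Uqcrfs1 and 0.0181 for mt-Co1. By limma-voom, Cox7a1 was -0.129, mt-Co2 -0.0705, mt-Nd3 -0.00532 and Uqcrfs1 3.793e-04. With total counts, mt-Nd3 was -0.0209. Uqcrfs1 was 0.00581 by DESeq2, 0.00576 with its size factors in edgeR and 6.324e-05 without MT genes. With its copy added, mt-Co2 was -0.280. The 6 restricted isoforms left untested and mt-Atp8 had few counts, so no difference could be read there.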
